A study of Mus musculus with 4 samples.

Results

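The heat shock chaperones described here are the HSP70 genes Hspa1a, Hspa1b and Hspa8, the HSP110 gene Hsph1, the HSP90 gene Hsp90aa1, the HSP40 gene Dnajb1, the small heat shock gene Hspb1 and the mitochondrial chaperonin genes Hspd1 and Hspe1. Hsf1, the transcription factor that drives their heat shock response, was added to them. These 10 genes, of 21260 symbols in the authors' deposited table, were taken by their symbols and by no cut on their values. Earlier results of these data were known when they were chosen. They were measured by 17 probes, and each probe is given on its own because probes of the same gene need not report the same transcripts.

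Liver RNA of 4 male C57Bl/6 Wrn mutant mice that had drunk water with 0.4% vitamin C since weaning was labelled with Cy5. Liver RNA of 4 untreated male C57Bl/6 wild-type mice was labelled with Cy3, and all mice were 3 months old and kept on a reversed light cycle. Each mutant animal shared a 2-colour Agilent array with a wild-type animal, and the 4 arrays are numbered here as the labels number the pairs. The design as labelled compares treated mutants with untreated wild types. Wrn encodes a DNA helicase of the RecQ family that is lost in human Werner syndrome, and vitamin C (ascorbate) is made by the mouse liver itself. Untreated mutants and treated wild types were not analysed here, and no array had its dyes swapped, so the mutation, the vitamin C and the dye cannot be told apart. The labels give the mutation as whole-animal genotype only, with no allele.

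Chaperones bind unfolded proteins and help them to fold, to be held in solution or to be degraded. HSF1 is kept inactive by chaperones in the unstressed cell. When unfolded proteins occupy those chaperones, HSF1 forms trimers, binds repeats of the bases GAA in either orientation upstream of heat shock genes and raises their transcription. In the liver, a tissue with heavy protein synthesis, HSPA8 and the mitochondrial chaperonin are made all the time, whereas HSPA1A and HSPA1B are made mainly after heat or other stress.

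Spots well above background made up 82.8% to 95.7% of an array in the mutant channel and 84.5% to 96.2% in the wild-type channel, with array 1 the dimmest in both, and no spot was saturated. Of 41174 probes, 39080 passed the filter on dim probes, all 17 probes of the chaperones and Hsf1 among them. Markers of hepatocytes had a mean log2 intensity of 16.6 to 16.7 in mutant livers and 16.2 to 16.6 in wild-type livers, the brightest of the cell type lists used, which fits the labelled tissue. The Wrn probes gave no check of the genotype labels: A_51_P325247 had a log2 ratio of 0.41 ± 0.10 (SD, n = 4 arrays; limma adjusted p = 0.0118), A_52_P383506 had 0.00 ± 0.02 and A_52_P498492 had -0.07 ± 0.06, and their places relative to the mutation are not stated.

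Of the 10 genes, 2 had a probe that passed an adjusted p of 0.05, Hspe1 with 1 higher probe and Hsf1 with 2 lower probes. The test was limma's moderated test of the mean log2 ratio, mutant over wild type, against 0 over 4 arrays, adjusted by Benjamini-Hochberg over all 39080 probes. Over all probes, 13.0% passed it, 6.19% higher and 6.79% lower in mutant livers, so that 3 of 17 probes is a share near the background. With each array centred on its median in place of loess, 9 of the 17 probes passed, 6 higher and 3 lower, from 7 of the 10 genes. In that fit 18.7% of all 39080 probes passed, 4292 higher and 3011 lower. After loess, the other 14 probes did not pass. An unadjusted p under 0.05 was found for 5 of the 17, beside 12775 of all 39080 probes. Mean log2 ratios ran between -0.31 and 0.27, 9 above 0 and 8 below it, with a median of 0.00, which is also the median over all probes. Beside all probes, the 17 differed more in their spread between arrays than in the size of their ratios. Their median SD was 0.18 on the log2 scale, against 0.10 over all probes, while their median absolute log2 ratio was 0.10, against 0.09. All probes were not matched to the 17 for intensity. Wide spread was not particular to the chaperones: SDs of the hepatocyte markers ran from 0.10 (Hnf4a) to 0.50 (Cps1). The plot of ratios by probe shows the arrays scattering to both sides of 0 for most probes.

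**Figure D1:**
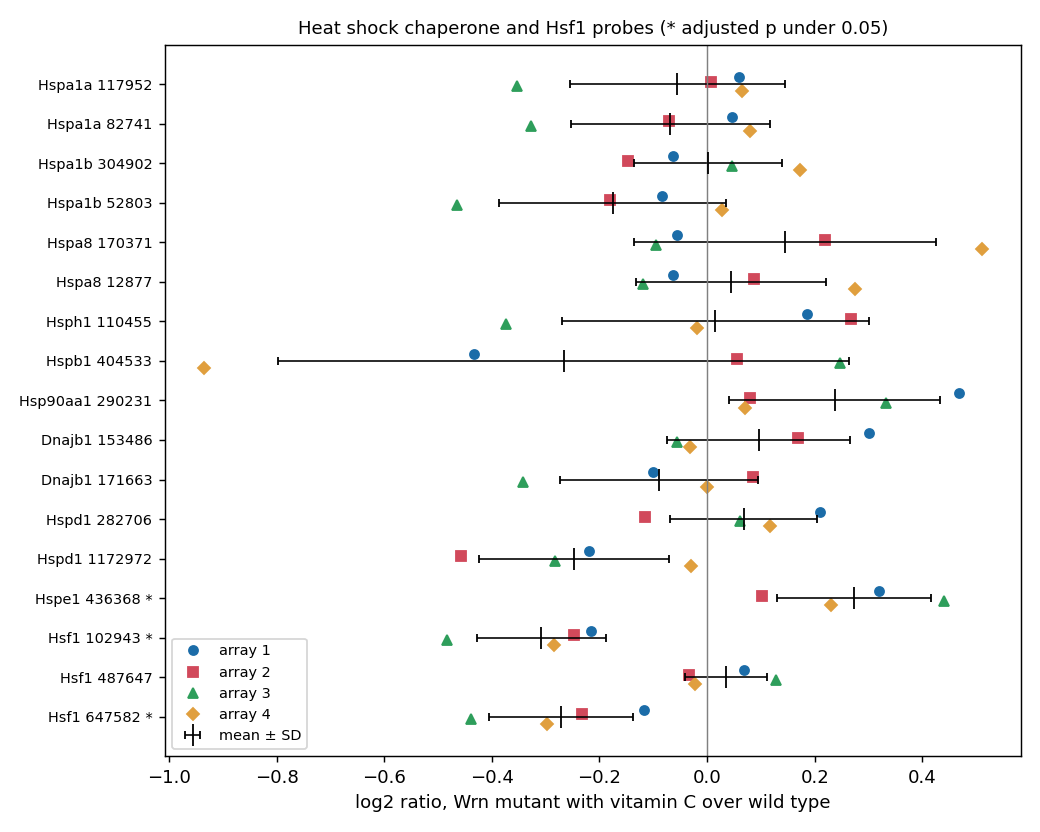
Log2 ratio of mutant with vitamin C over wild type for the 17 probes, with a point for each of the 4 arrays and a bar for the mean with its SD; an asterisk marks an adjusted p under 0.05 and probes are labelled by the last part of their name. Both lower probes of Hsf1 lie left of 0 on all 4 arrays, Hspe1 lies right of 0 on all 4, and the probes of Hspa1a, Hspa1b, Hsph1, Dnajb1 and Hspb1 spread to both sides.

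Hsf1 gave a split picture. Its 3 probes are shown by their first 30 bases of 60, from the deposited array annotation, 5′ to 3′ and with no part marked, because 2 of them changed and the other did not pass the test.
Hsf1 A_51_P102943: atccctaggacatggctggtcctagggaga
Hsf1 A_52_P647582: ccagtggagcacagatggaacttggtcctg
Hsf1 A_52_P487647: agccctgactccctccctcctcctgcagct
The last of these lists no RefSeq transcript in the array annotation and was designed to a separate database entry.

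Probe A_51_P102943 of Hsf1 had log2 intensities of 9.09, 8.95, 9.001 and 9.03 in the mutant livers, against 9.31, 9.20, 9.48 and 9.31 in the wild-type livers of arrays 1 to 4. Every mutant liver was below every wild-type liver, which no other of the 17 probes showed and which 7.19% of all probes showed, in either direction. Its log2 ratio was -0.31 ± 0.12 (SD, n = 4 arrays, 95% interval -0.44 to -0.17), a ratio of 0.808 on the linear scale, with a limma adjusted p of 0.0237. Hsf1 probe A_52_P647582 had 11.36, 11.05, 11.10 and 11.18 in mutant livers, against 11.48, 11.28, 11.54 and 11.47 in wild-type livers. It was lower in the mutant channel on each array, but the groups overlapped through the mutant liver of array 1 and the wild-type liver of array 2. Its log2 ratio was -0.27 ± 0.13 (limma adjusted p = 0.0341).

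Probe A_52_P487647 of Hsf1 had 13.88, 13.98, 14.16 and 13.67 in mutant livers, against 13.81, 14.01, 14.03 and 13.69 in wild-type livers, so its groups lay over each other. Its log2 ratio of 0.04 ± 0.08 did not pass the test (95% interval -0.08 to 0.15; limma adjusted p = 0.649), though under median centring it was 0.24 and passed (limma adjusted p = 0.0229). Within each array the ratio of A_51_P102943 was below that of A_52_P487647, by a mean of 0.34 on the log2 scale (difference -0.34 ± 0.18, SD, n = 4), whereas the ratios of both lower probes differed by -0.04 ± 0.05. The mean of the Hsf1 probes was -0.18 (limma adjusted p = 0.0486 over genes). In the authors' deposited table both lower Hsf1 probes passed as well, with -0.33 (adjusted p = 0.0337) and -0.27 (adjusted p = 0.0494). The decreases stayed without single arrays, at -0.339 to -0.249 for A_51_P102943 and -0.323 to -0.215 for A_52_P647582, but most calls were lost: A_51_P102943 had limma adjusted p-values of 0.0533, 0.0787 and 0.0668 without arrays 1, 2 and 4 and passed without array 3, and A_52_P647582 had 0.0521 to 0.104 without any of the 4.

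**Figure D2:**
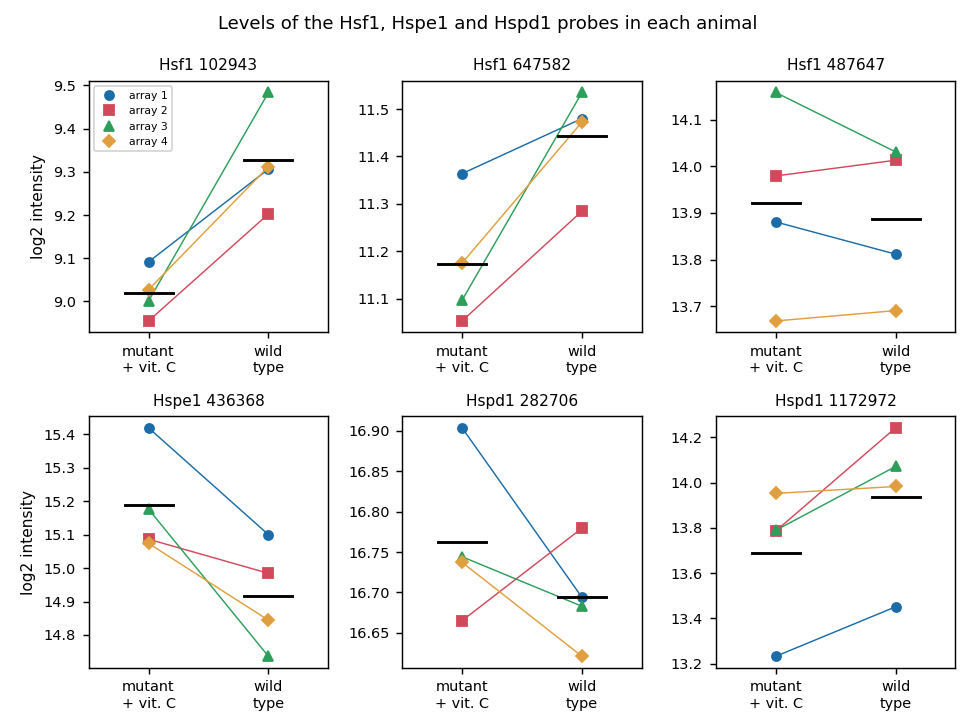
Log2 intensity per liver after normalization, mutant with vitamin C at left and wild type at right of each panel, for the Hsf1, Hspe1 and Hspd1 probes, labelled by the last part of the probe name; lines join the 2 animals of an array and black bars are group means. The lines of Hsf1 A_51_P102943 all run up towards wild type with no overlap between the groups, those of Hspe1 all run down towards wild type, those of Hspd1 A_52_P1172972 all run up, and those of Hspd1 A_51_P282706 run down on all arrays but array 2.

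Hspe1 and Hspd1 make the mitochondrial chaperonin, a barrel of HSP60 subunits (Hspd1) closed by an HSP10 lid (Hspe1) inside which imported proteins fold. The genes are neighbours on mouse chromosome 1, read in opposite directions from a shared promoter region. The Hspe1 probe is shown by its first 30 bases and the Hspd1 probes by 30 bases and the whole 60, because the mean ratios of the 2 Hspd1 probes lay on opposite sides of 0.
Hspe1 A_51_P436368: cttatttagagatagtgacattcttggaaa
Hspd1 A_51_P282706: tgggtgcaagagccatataccagtgtcctg
Hspd1 A_52_P1172972: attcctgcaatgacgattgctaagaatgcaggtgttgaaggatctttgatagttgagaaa

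Hspe1 had log2 intensities of 15.42, 15.09, 15.18 and 15.07 in mutant livers, against 15.10, 14.98, 14.74 and 14.84 in wild-type livers. The mutant channel was higher on each array, while the groups overlapped because the wild-type liver of array 1 was brighter than the mutant livers of arrays 2 and 4. The log2 ratio was 0.27 ± 0.14 (SD, n = 4, 95% interval 0.13 to 0.42), or 1.21-fold, with a limma adjusted p of 0.0362. The authors' deposited table gives Hspe1 the same mean of 0.27 with an adjusted p of 0.0534, and the call was also lost without any of the 4 arrays (adjusted p 0.0676 to 0.106).

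Neither Hspd1 probe passed the test. Probe A_51_P282706 had log2 ratios of 0.21, -0.11, 0.06 and 0.12 on arrays 1 to 4, a mean of 0.07 ± 0.14 with a 95% interval of -0.08 to 0.21 (limma adjusted p = 0.474). Probe A_52_P1172972 had -0.22, -0.46, -0.28 and -0.03, a mean of -0.25 ± 0.18 with an interval of -0.41 to -0.08, and missed the threshold (limma adjusted p = 0.0621). Its ratio lay below that of the other Hspd1 probe on 4 of 4 arrays, by 0.32 ± 0.12 on the log2 scale. The levels of A_52_P1172972 were 13.23, 13.79, 13.79 and 13.95 in mutant livers, against 13.45, 14.24, 14.07 and 13.98 in wild-type livers, and the groups overlapped. The mean of both Hspd1 probes was -0.09 on the log2 scale, below 0 like the second probe. With each array centred on its median in place of loess the signs were the same but the sizes were not: Hspd1 A_51_P282706 had 0.59 and passed (limma adjusted p = 0.00605), A_52_P1172972 had -0.0461, and Hspe1 had 0.60.

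The cytosolic HSP70 pair Hspa1a and Hspa1b did not pass the test at any of 4 probes after loess. These adjacent genes on mouse chromosome 17 code for nearly the same protein, and their probes cannot be taken as separate: both probes listed under Hspa1b also list the RefSeq transcript of Hspa1a. The Hspa1a probes overlap by 30 bases, shown in capitals as the stretch that both carry, at the end of A_51_P117952 and the start of A_52_P82741.
Hspa1a, shared by both probes: AGGGAAACTAAACTGTCTTTCAGTTACTTT
Hspa1b A_52_P304902: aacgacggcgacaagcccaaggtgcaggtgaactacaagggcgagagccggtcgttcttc
Hspa1b A_52_P52803: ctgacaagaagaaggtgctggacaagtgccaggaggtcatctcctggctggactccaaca

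Hspa1a probe A_51_P117952 had log2 intensities of 9.20, 8.84, 8.96 and 8.97 in mutant livers, against 9.14, 8.84, 9.31 and 8.91 in wild-type livers. Its log2 ratios were thus near 0 on arrays 1, 2 and 4 (0.06, 0.01 and 0.07) and -0.35 on array 3, where the wild-type liver was the highest of the 8. The mean was -0.06 ± 0.20 (limma adjusted p = 0.659). Hspa1a probe A_52_P82741, which carries the shared stretch, followed it closely: -0.33 on array 3, and a mean of -0.07 ± 0.18 (adjusted p = 0.556).

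Hspa1b probe A_52_P52803 had log2 ratios of -0.08, -0.18, -0.46 and 0.03, again lowest on array 3, and a mean of -0.17 ± 0.21 with a 95% interval of -0.37 to 0.02 (limma adjusted p = 0.182). Hspa1b probe A_52_P304902 was dim, at the 2.90 percentile of intensity among the probes kept, and was well above background on 3 arrays in each channel. Its log2 ratios of -0.06, -0.15, 0.05 and 0.17 averaged 0.00 ± 0.14 (limma adjusted p = 0.987), but under median centring the mean was -0.20 and passed (limma adjusted p = 0.0424).

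Hspa8 encodes the constitutive HSP70, which folds new proteins and strips clathrin from vesicles. Probe A_51_P170371 had log2 intensities of 16.25, 16.10, 16.01 and 16.16 in mutant livers, against 16.30, 15.88, 16.10 and 15.65 in wild-type livers. The ratio was above 0 on arrays 2 and 4 (0.22 and 0.51) and below 0 on arrays 1 and 3 (-0.06 and -0.10). The means were 0.14 ± 0.28 for A_51_P170371 and 0.04 ± 0.18 for A_52_P12877 (limma adjusted p = 0.362 and 0.699). Under median centring, A_51_P170371 of Hspa8 had 0.59 and passed (limma adjusted p = 0.0338), and A_52_P12877 had 0.23.

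Dnajb1, the stress-inducible HSP40 that delivers clients to HSP70, had 1 probe above 0 and 1 below it. Dnajb1 A_51_P153486 had log2 ratios of 0.30, 0.17, -0.06 and -0.03 and a mean of 0.10 ± 0.17, whereas A_52_P171663 had -0.10, 0.09, -0.34 and 0.00 and a mean of -0.09 ± 0.18 (limma adjusted p = 0.378 and 0.436). Under median centring, Dnajb1 A_51_P153486 had 0.24 and passed (limma adjusted p = 0.0417). For both Dnajb1 probes the lowest of the 4 ratios was that of array 3. Hsph1 encodes HSP110, the exchange factor that makes HSP70 release its nucleotide and its client. Its log2 ratios of 0.19, 0.27, -0.37 and -0.02 on arrays 1 to 4 spanned 0, with a mean of 0.02 ± 0.29 (limma adjusted p = 0.931), and the wild-type liver of array 3 was again its highest in that group, at 12.51.

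**Figure D3:**
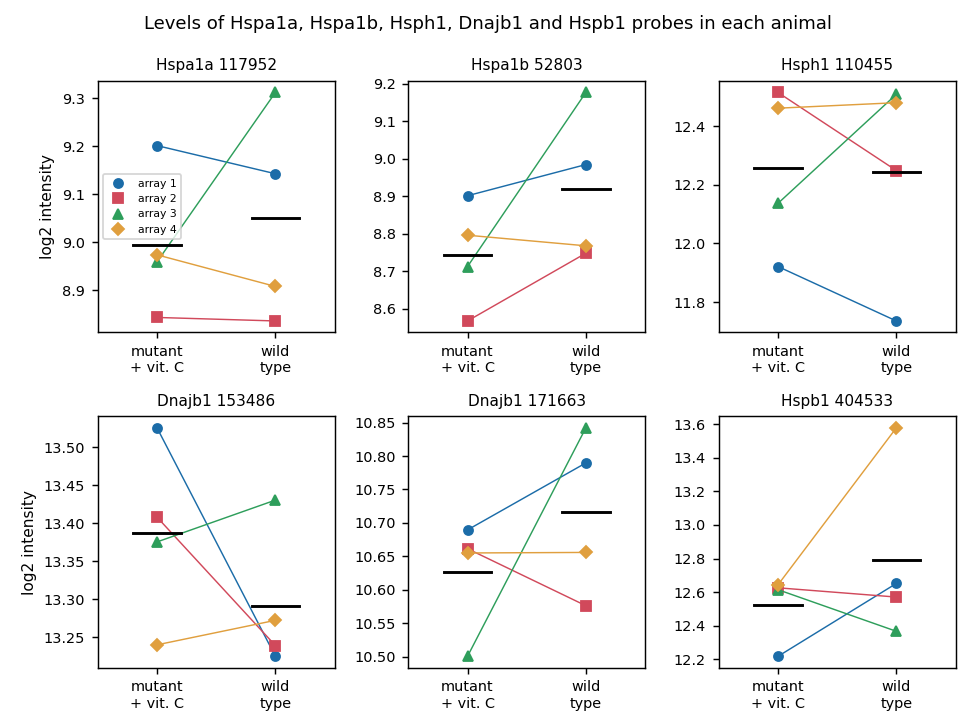
Log2 intensity per liver after normalization, mutant with vitamin C at left and wild type at right of each panel, for the probes of the stress-inducible Hspa1a, Hspa1b, Hsph1, Dnajb1 and Hspb1, with lines joining the 2 animals of an array and black bars for group means. On array 3 the line runs up to the wild-type liver in each of the drawn panels but that of Hspb1 (Hspa1b is drawn by A_52_P52803), whose wild-type liver of array 4 stands above the rest.

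Hsp90aa1 encodes the stress-inducible HSP90, which holds kinases and steroid receptors in a form that can be activated. Its probe A_51_P290231 had log2 intensities of 14.33, 14.72, 14.68 and 15.05 in mutant livers, against 13.86, 14.64, 14.35 and 14.99 in wild-type livers. The mutant channel was above the wild-type channel on each of the 4 arrays, as 40.3% of all probes were on 1 side of 0 throughout. The differences were uneven, 0.47 and 0.33 on arrays 1 and 3 and 0.08 and 0.07 on arrays 2 and 4. The mean log2 ratio of Hsp90aa1, 0.24 ± 0.20 with a 95% interval of 0.06 to 0.42, missed the threshold (limma adjusted p = 0.0813). With median centring in place of loess it was 0.52 and passed (limma adjusted p = 0.00432).

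Hspb1 encodes HSP27 of the small heat shock proteins (called HSP25 in mice), which holds unfolding proteins without ATP and binds actin. Probe A_52_P404533 of Hspb1 had log2 intensities of 12.22, 12.63, 12.61 and 12.64 in mutant livers, against 12.65, 12.57, 12.37 and 13.58 in wild-type livers. The wild-type liver of array 4 was the highest of the 8, and the mutant liver of array 1 the lowest. Its log2 ratio of -0.27 ± 0.53 had the widest interval of the 17 probes, -0.69 to 0.16 (limma adjusted p = 0.343), and without array 4 the mean was -0.04. Markers of Kupffer cells, the liver's macrophages, also had their lowest ratio on array 4: the median log2 ratio of 7 of 7 measured markers was 0.27, -0.21, 0.25 and -0.53 on arrays 1 to 4, beside -0.43, 0.06, 0.25 and -0.93 for Hspb1. Their mean log2 intensity ran between 12.2 and 12.6 in mutant livers and between 12.2 and 12.9 in wild-type livers, none of the 7 passed the test, and none was left out as dim. The 4 measured of 5 neutrophil markers had medians of 0.04, -0.03, -0.11 and -0.39, a mean level of 7.94 to 8.14 in mutant livers and of 7.96 to 8.60 in wild-type livers, and 0 of 4 passed. Sinusoidal endothelial markers were lowest on array 4 as well, with medians of -0.12, -0.18, -0.08 and -0.33 on arrays 1 to 4. The remaining marker lists had their lowest median on other arrays. On array 1 the Kupffer cell median was above 0, where Hspb1 was below it. The part of any of these cell types in the Hspb1 values was not tested. In whole liver, fewer cells of a type and less RNA per cell cannot be told apart.

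The lowest ratio on array 3 recurred among the chaperones. Of the 17 probes, 10 (58.8%) had their lowest log2 ratio on array 3, as did 29.2% of the 38927 probes with a value on every array. The wild-type liver of array 3 had the highest level of its group for 9 of the 17 probes (52.9%), namely every probe of Hspa1a, Hsph1, Dnajb1 and Hsf1 and A_52_P52803 of Hspa1b, as it had for 18.6% of all such probes. The probes share animals and, for Hspa1a and Hspa1b, sequence, so they are not independent counts of it. Bag3, a co-chaperone of HSP70 that HSF1 also induces, had -0.04, 0.03, -0.84 and -0.24 on the 4 arrays. It was picked out after its values were seen, and other genes went the other way. Serpinh1, which HSF1 also induces, and the small heat shock gene Cryab had their highest ratio on array 3, at -0.07 and 0.09. So did 3 of the 17 probes, among them that of Hspb1 with 0.25. With array 3 left out, the mean log2 ratios of the Hspa1a probes were 0.04 and 0.02, and that of Hsph1 was 0.145.

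Promoter windows from RefSeq on build GRCm38.p6, from 250 bases before to 50 bases after a gene's start, were searched on both strands for the repeats that HSF1 is known to bind. Windows were at hand for 7 of the 10 genes, 10 windows in all; Hspa8, Hsp90aa1 and Hsf1 had none in the table. A gene is named below if any of its windows matched. The pair GAANNTTC was in 7.86% of 32851 mouse windows and in 7 of the 10, from Hspa1a, Hspa1b, Hsph1, Hspb1, Hspd1 and Hspe1. The pair TTCNNGAA was in 8.52% of windows and in 4 of the 10, from Hsph1, Hspd1 and Hspe1. The triplet GAANNTTCNNGAA, or TTCNNGAANNTTC on the other strand, contains both pairs. It was in 0.603% of windows and in 4 of the 10, from the same 3 genes. The window of Dnajb1 held none of these letters. Sites are shown with the matched bases in capitals, to show the letters behind these counts.
Hspa1a, chr17:34972242-34972271, minus strand: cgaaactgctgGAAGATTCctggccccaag
Hspa1b, chr17:34959324-34959353, minus strand: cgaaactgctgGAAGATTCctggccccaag
Hspb1, chr5:135887791-135887820, plus strand: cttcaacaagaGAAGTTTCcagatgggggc
Hspb1, chr5:135887811-135887840, plus strand: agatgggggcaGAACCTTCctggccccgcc
Hspe1, chr1:55088051-55088080, plus strand: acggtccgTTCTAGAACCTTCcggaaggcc
Hsph1, chr5:149636279-149636308, minus strand: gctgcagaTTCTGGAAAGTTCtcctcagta

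The Hspa1a and Hspa1b sites are identical letter for letter, and their whole windows differed at 4 of 300 bases. The match in Hspe1 begins 89 bases before the gene's start, and a second triplet overlaps it; the Hspe1 window shares 285 bases with that of Hspd1 on the opposite strand, so the same letters stand before both genes. The Hsph1 triplet shown lies after the gene's start and not before it, beginning 15 or 36 bases past it, depending on the window. Among the genes with a triplet, Hspe1 rose, Hsph1 did not pass, and neither Hspd1 probe passed. A match of letters is a description and not a measured binding site.

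Further chaperone genes were counted by 1 probe a gene, the brightest, with p-values adjusted over 26114 genes, of which 12.2% passed (6.64% higher, 5.57% lower in mutant livers). All 70 genes of the 7 lists were measured, and 5 passed as higher and 4 as lower, a share near that of all genes. With median centring in place of loess, 12 passed as higher and 0 as lower, beside 13.1% and 5.77% of all genes in that fit. Each of the 9 calls was lost in at least 3 of the 4 fits that left out an array. The median log2 ratio of every list lay between -0.06 and 0.02, beside 0.01 over all genes. The plot of list genes shows their spread around 0.

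**Figure D4:**
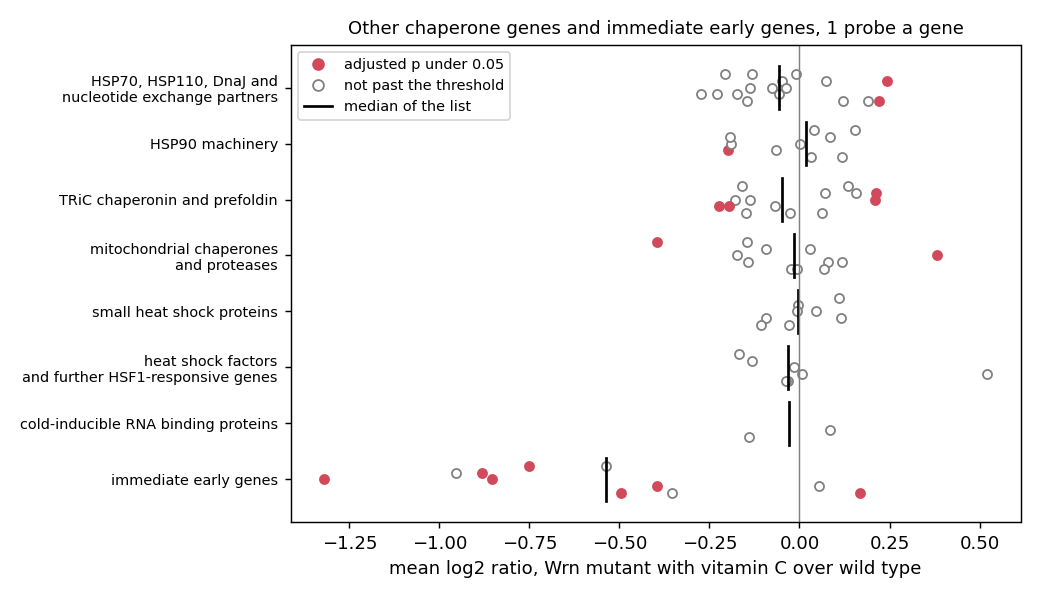
Mean log2 ratio of mutant with vitamin C over wild type for each gene of the chaperone lists and of the immediate early genes, by its brightest probe, with red points for an adjusted p under 0.05 and a bar for the median of the list. The chaperone lists centre on 0, with medians from -0.06 to 0.02, and the immediate early genes have a median of -0.54.

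Of the 17 partners of HSP70 (DnaJ proteins, HSP110 relatives and exchange factors), 2 rose, none fell and 15 did not pass. Hspa14, an HSP70 relative bound to ribosomes, rose by 0.22 ± 0.08 on the log2 scale (limma adjusted p = 0.0349), and Hspa4l, an HSP110 relative, rose by 0.24 ± 0.13 (limma adjusted p = 0.0448). Of the 10 genes of the HSP90 machinery, Ahsa1 alone passed: this activator of the HSP90 ATPase had -0.20 ± 0.03 (limma adjusted p = 0.0317), but 0.13 with median centring in place of loess.

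The cytosolic chaperonin TRiC and its partner prefoldin, which fold actin and tubulin, had 2 higher and 2 lower genes of 14. The chaperonin subunit Cct5 rose by 0.21 ± 0.03 and the prefoldin subunit Pfdn1 by 0.21 ± 0.08 (limma adjusted p = 0.0282 and 0.0376). The subunits Pfdn6 and Cct8 had -0.22 ± 0.08 and -0.19 ± 0.07 (limma adjusted p = 0.0351 and 0.0434), but under median centring Cct8 had 0.06 and Pfdn6 did not pass (-0.0852). After loess, subunits of both complexes were found on either side of 0.

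Among 12 further mitochondrial chaperones and proteases, Clpx rose and Lonp1 fell. CLPX unfolds proteins for the protease CLPP, and its gene had a log2 ratio of 0.38 ± 0.25 at its brightest probe (limma adjusted p = 0.0441) and of 0.11 as a mean of its 3 probes. Lonp1, the gene of the main protease of the mitochondrial matrix, had -0.39 ± 0.11 (limma adjusted p = 0.0157), and -0.0872 with median centring, which did not pass. None of 8 small heat shock genes passed, and those of smallest p were Hspb7 with 0.11 ± 0.06 and Hspb3 with 0.11 ± 0.09 (limma adjusted p = 0.132 and 0.187).

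The heat shock factors and further genes that HSF1 induces had 0 of 7 past the test. Serpinh1, the collagen chaperone HSP47, had -0.17 ± 0.09, and the HSP70 gene Hspa1l had -0.13 ± 0.03 (limma adjusted p = 0.073 and 0.077). The cold-inducible RNA-binding protein genes, Cirbp with -0.14 ± 0.24 and Rbm3 with 0.08 ± 0.20, did not pass either (limma adjusted p = 0.325 and 0.503).

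Immediate early genes, which respond within minutes to growth factors and handling stress, were set beside the chaperones as a second inducible group. Of 11 measured, 6 fell, 1 rose and 4 did not pass, with a median log2 ratio of -0.54. Over all genes by the brightest probe, 5.57% passed as lower and 6.64% as higher. Fewer of the lower calls held with no replicate block or with a single array left out, as given in the last section. Their mean log2 intensity was 10.92 to 11.01 in mutant livers and 11.20 to 11.85 in wild-type livers. Dusp1, a phosphatase that switches off MAP kinases, fell by 1.32 on the log2 scale (SD 0.28; limma adjusted p = 0.00542). Zfp36, which marks inflammatory mRNAs for decay, had -0.50 ± 0.11 and Ier2 had -0.39 ± 0.17 (limma adjusted p = 0.0112 and 0.0233), while Fosb had 0.17 ± 0.04 (limma adjusted p = 0.0463). As a mean of its 2 probes Ier2 had -0.18 and did not pass (limma adjusted p = 0.0726), nor did it under median centring (limma adjusted p = 0.0512). The call of Zfp36 held in 13 of 16 alternative settings and that of Fosb in 7. The part of the fall of immediate early genes in the chaperone values was not tested.

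Of 8 hepatocyte markers measured of 9, 3 were higher, 1 was lower in mutant livers and 4 did not pass, with a median log2 ratio of 0.24 and array medians of -0.12, 0.07, 0.57 and 0.51. Of the other marker lists, sinusoidal endothelial cells had 2 lower of 6, cholangiocytes 2 lower of 5 and B cells 1 lower of 4. Over all genes by the brightest probe, 6.64% passed as higher and 5.57% as lower. Among these lower markers, Clec4g and Sox9 had -0.35 and -0.58 at the brightest probe but -0.07 and -0.27 as means of their probes. The mean log2 intensity of the sinusoidal endothelial markers was 11.92 to 12.03 in mutant livers and 12.08 to 12.28 in wild-type livers, and that of the cholangiocyte markers was 9.42 to 9.83 in mutant livers and 9.81 to 9.85 in wild-type livers. None passed among 7 Kupffer cell, 7 stellate cell, 4 neutrophil, 5 T and NK cell and 4 erythroid markers. Their part in the values of Hspe1 and Hsf1 was not tested.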

How the data were processed

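Cy5 held the RNA of mutant mice and Cy3 that of wild-type mice, per the labels. The intensity of each spot and of its local background was read with Agilent Feature Extraction 10.5.1.1 from arrays whose annotation is of mm9, per the file headers. In the table that the authors deposited are log2 ratios per array, their mean, the p-value before and after adjustment and, as scores, limma's statistic, the log odds and a signed fold. limma is named without a version in the submitters' processing notes.

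Here, median intensities were corrected with normexp (offset 50) and normalized by loess with control spots at weight 0 (R 4.3.3, limma 3.58.1). Control spots and outlier flags were removed and spots of a probe averaged. A probe was kept if either channel stood well above background on 3 or more arrays and 3 or more values were left, which held for 39080 of 41174. limma's lmFit and eBayes tested whether the mean log2 ratio over 4 arrays differed from 0, and p-values were adjusted by Benjamini-Hochberg over all kept probes. The level in a channel is the log2 intensity after loess and Aquantile, which dye bias can touch. For lists, the brightest probe stood for a gene. Probes were named through RefSeq GRCm38.p6 by accession (69.2%), symbol (13.1%), older symbol (1.07%) or the deposited symbol (2.74%), and 13.9% had no name.

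Every probe of the 10 genes was named, and of each other list up to 3 genes of smallest p past the threshold in each direction, or the 2 of smallest p. The members and lists were chosen with earlier results of these data known. The labels call the pairs biological replicates. Array pairs correlated with r from 0.394 to 0.589 across probes, which are not independent. The array pairs the channels: deviations from the group means correlated with r from 0.672 to 0.942 between channels of the same array and from -0.704 to 0.494 between different arrays. The 4 arrays share 1 slide and 1 scan time. Tested on simulated data (39080 probes, 4 arrays), the fit recovered 8% of changes by 1.2 times, 34% at 1.3 times, 68% at 1.5 times and 92% at 2 times. There, 1.94% of its calls were false. The simulation changed only 50 probes at each size, in noise drawn independently for each probe and with no dye bias. In the measured data 13.0% of probes passed, so neither the recovery nor the false share carries over to them. The number of arrays limits the precision. Alternatives were the background correction, the normalization, Agilent's processed signals, the filter, probe or gene level, array weights, an intensity trend, the authors' ratios, no block and leaving out each array.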

Additional observations from a re-analysis of the deposited data

Results flagged for a closer look

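In groups of 4 values, the gap from the highest or lowest value to its neighbour was divided by the whole range, and values above Dixon's 95% critical value were noted. Of 51 groups tested, 4 passed, and chance gives about 1 in 20. The groups are not independent, since a ratio is the difference of its channel levels and some probes share sequence. The count of 4 was therefore not tested against chance. The log2 ratios of Hspa1a probe A_51_P117952 gave 0.860, with array 3 low at -0.35. The wild-type levels of Hspa1a probe A_52_P82741 gave 0.915, with array 3 high at 9.71 and the others at 9.21 to 9.25. The wild-type levels of the dim Hspa1b probe A_52_P304902 gave 0.839, with array 1 high at 7.28 and the others at 6.50 to 6.63. The mutant levels of Hspb1 gave 0.933, with array 1 low at 12.22 and the others at 12.61 to 12.64.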

How the results depend on the processing

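Single probes and genes kept their direction and their side of the threshold in 444 repeats under alternative settings, lost a call in 96, gained a call in 5 and reversed in 22. The cause was not tested. A reversal was counted as such whether or not a call was gained or lost with it. For list genes, the setting with the brightest probe per gene repeats the fit of the report, so those repeats among the 444 could not differ. The number of chaperone and Hsf1 genes with a changed probe, 2 in the report, was 7 with median centring in place of loess, 1 each with Agilent's processed signals, with the brightest probe per gene and with an intensity trend, and 0 with no replicate block (channels as separate samples, the array not modelled). It was 0 to 1 when single arrays were left out: 0 without arrays 1, 2 or 4, and 1, Hsf1, without array 3. Over all probes, the 5076 changed (2421 higher, 2655 lower) became 7303 with median centring (4292 higher, 3011 lower), 1340 with processed signals (465 higher, 875 lower), 3189 and 2720 by the brightest probe and the mean of a gene's probes, 26 with no replicate block, and 160 to 2270 without single arrays (1494, 160, 2270 and 1086 without arrays 1 to 4). Of the chaperone lists, 5 higher genes became 12 with median centring, 0 with processed signals, 0 with no replicate block and 0 to 1 without single arrays, and 4 lower genes became 0, 1, 0 and 0 to 1 under the same settings and 2 with an intensity trend. The 6 lower immediate early genes became 1 with no replicate block and 1 to 5 without single arrays. With median centring, Hspe1 was 0.60 (adjusted p = 0.0037), and calls were gained by Hspd1 A_51_P282706 (0.59), Hspa8 A_51_P170371 (0.59), Hsp90aa1 (0.52), Dnajb1 A_51_P153486 (0.24) and Hsf1 A_52_P487647 (0.24), while both lower Hsf1 probes kept theirs (-0.30 and -0.20). Reversed with median centring were Hspa1b A_52_P304902 (-0.20, adjusted p = 0.0424), Ahsa1 (0.13) and Cct8 (0.0629). Hspa1b A_52_P304902, at 0.00 in the report, was also -4.79e-05 with no background correction, -0.0031 with plain subtraction, -0.0865 as a mean of probes, -0.0030 by the authors' ratios and -0.0549 to 0.0514 without single arrays. Processed signals reversed Hspa1a A_52_P82741 (0.0109), Hspa8 A_52_P12877 (-0.0378), Hspd1 A_51_P282706 (-0.0566) and Rbm3 (-0.0538). As means of probes, Dnajb1 A_52_P171663 was 0.0032, Hspd1 A_51_P282706 -0.0894 and Hsf1 A_52_P487647 -0.18, by the averaging itself. Without single arrays, Hsph1 ranged over -0.0685 to 0.145, Hspa1a A_51_P117952 over -0.0955 to 0.0438, Hspa1a A_52_P82741 over -0.117 to 0.0183, Hspa8 A_52_P12877 over -0.0319 to 0.0991 and Rbm3 over -0.0039 to 0.159. Of the calls of the chaperones, Hsf1 and the named list genes, that of Dusp1 alone held under all 16 alternatives (the Wrn call was not rerun). For Dusp1, as for each list gene, the brightest-probe setting among the 16 could not differ. Hspe1 held in 9 of 16, Hsf1 A_51_P102943 in 11 of 15 and Hsf1 A_52_P647582 in 9 of 15. The slide as a block was not run, since all arrays lay on 1 slide. Signal over background limits the dim Hspa1b probe alone of the 17.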
